A study of Mus musculus with 6 samples.

Results

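The Notch pathway was followed through 10 genes in RNA-seq of the mouse cochlea, namely the receptors Notch1, Notch2 and Notch3, the ligands Jag1, Jag2 and Dll1, and the transcriptional effectors Hes1, Hes5, Hey1 and Hey2. The members were chosen by name, and each symbol matched 1 Ensembl ID, giving 10 of the 55769 features in the files. Cochlear tissue was taken on postnatal day 3 from Plscr5-/- mice (knockout, 3 libraries) and from wild-type mice (3 libraries). Plscr5 encodes a member of the phospholipid scramblase family. The labels give no strain, sex or pooling of animals and do not say which part of Plscr5 was altered. The text on RNA extraction names a Pou4f3 heterozygous line in place of the knockout, and the groups here follow the genotype field and the sample titles.

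Notch signalling passes between touching cells. A ligand of the Jagged or Delta-like class on one cell binds a Notch receptor on its neighbour, proteases release the intracellular part of the receptor, and this part joins the DNA-binding protein RBPJ in the nucleus and switches on the Hes and Hey repressors. In the developing mouse cochlea the pathway is known for lateral inhibition, in which nascent hair cells carrying Dll1 and Jag2 hold their neighbours in the supporting cell fate through Hes and Hey genes, and for an earlier role of Jag1 in setting out the sensory region. Notch3 is best known from mural cells of blood vessels, and Notch1, Hey1 and Hey2 also act in endothelium.

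Promoter sequence can be searched for the letters that RBPJ binds. Promoter windows from RefSeq (GRCm38.p6) were at hand for 8 of the 10 members, all but Hes1 and Hey1, in 9 windows, each taken from 250 bases before the transcription start to the 3 bases after it. The letters GTGGGAA, the core that RBPJ is known to bind, were searched on both strands, and a match is a description of these letters, not evidence of binding. They occurred in 2 of the 8 members with a window, Hes5 and Hey2, which are the windows shown here because they hold the letters 2 times each, once on either strand. Of all 32851 RefSeq promoter windows of this length, 5.49% held at least 1 match, 0.167% held 2 or more, and 0.0609% held matches on both strands. Capitals mark the matches, and TTCCCAC is GTGGGAA read from the other strand.
Hes5: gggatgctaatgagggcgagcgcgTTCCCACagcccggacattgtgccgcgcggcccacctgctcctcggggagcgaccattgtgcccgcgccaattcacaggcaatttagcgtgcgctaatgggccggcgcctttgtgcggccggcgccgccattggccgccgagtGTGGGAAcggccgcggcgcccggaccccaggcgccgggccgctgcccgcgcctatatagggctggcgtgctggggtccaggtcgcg
Hey2: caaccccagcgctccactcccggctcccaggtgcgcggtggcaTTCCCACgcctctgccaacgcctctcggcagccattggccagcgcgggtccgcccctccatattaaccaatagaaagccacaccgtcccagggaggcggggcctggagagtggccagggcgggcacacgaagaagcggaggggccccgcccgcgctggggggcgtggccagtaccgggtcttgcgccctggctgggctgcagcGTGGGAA
The Hes5 window lies at chr4:154960673-154960925 on the plus strand, with matches from -226 to -220 and from -83 to -77 relative to the start. The Hey2 window lies at chr10:30842781-30843033 on the minus strand, with matches from -207 to -201 and from -4 to 3. The second Hey2 match ends on the last base of the window and would be lost in a window that ended at the start. The count of 2 for Hey2, on both strands, thus depends on where the windows end, and so do the shares over all windows. Among the other Notch pathway genes listed further on, 36 had a window and 5 held a match in at least 1 of their windows.

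Values are in TPM, in which reads are divided by transcript length and then brought to the same total in every library, so that levels of different genes can be compared within a library. Sequencing depth is unknown because TPM keeps no read totals. Genotype differences are log2 fold changes of TPM + 1, knockout minus wild type, from a limma fit across the 17097 features that reached 1 TPM in 3 or more libraries. P-values were adjusted over all of these (Benjamini-Hochberg), and an adjusted p under 0.05 was taken as passing. All 10 members passed the filter. Errors are SD over 3 libraries unless given as SE. Nothing says that the libraries of a genotype came from separate animals, so the p-values measure the spread between these libraries, which may be partly technical. Plscr5 itself was at 4.30, 3.69 and 5.01 TPM in knockout libraries and at 14.53, 12.42 and 9.27 TPM in wild-type libraries, lower in all 3 knockouts, with a limma adjusted p of 0.29. Wild type replicate 3 stood apart in nerve. The summed level of 8 Schwann cell markers was 337 TPM there, against 1182 to 2094 TPM in the other 5 libraries. That of 8 neuronal markers was 407 TPM, against 651 to 908 TPM. The same library was lowest in 8 dividing cell markers (65 TPM, against 105 to 137 TPM). It was highest in the hair cell and supporting cell sums (273 and 760 TPM). Knockout replicate 1 was lowest in 7 red blood cell markers, at 443 TPM against 634 to 1482 TPM. All 7 hair cell and all 6 supporting cell markers were above 0 in every library. The same held for every marker of the other lists except 1 red blood cell marker. Values above 0 thus do not by themselves show which cells the tissue held.

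Of the 10 members, 0 passed the threshold in either direction, and in the main fit 0 had an unadjusted limma p under 0.05. In the background of all tested features, 0.0117% passed after adjustment and 4% had an unadjusted p under 0.05. The genotypes overlapped at all 10 members, where 9.33% of tested features had no overlap in either direction. The fold changes of the 10 had a median of -0.03, against -0.01 over all tested features, with 3 positive and 7 negative values. With trimmed-mean scaling, quantile normalization or removal of length and GC trends the split was 5 positive and 5 negative, Notch2 and Hey2 being the members that changed sign. In bulk tissue, fewer cells of a type and less RNA per cell cannot be told apart.

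**Figure D1:**
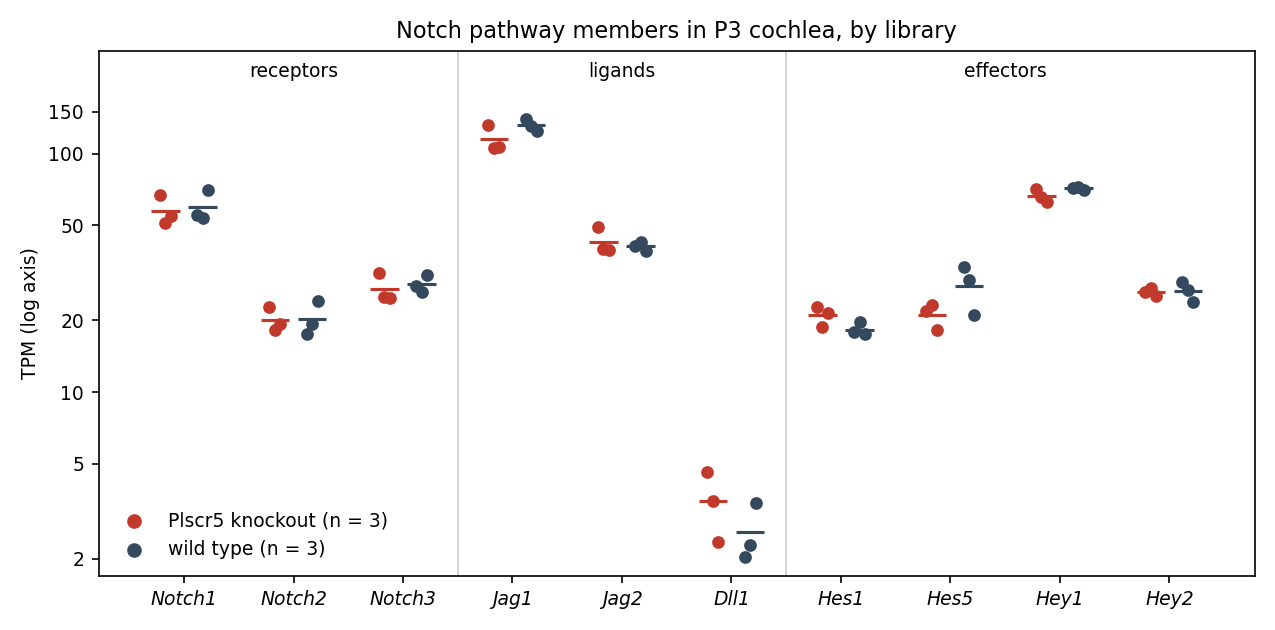
TPM on a log axis of each of the 10 genes in 3 Plscr5 knockout libraries (red, left) and 3 wild-type libraries (blue, right), with the group mean as a bar. The genotypes overlap at every gene, and levels run from about 3 TPM for Dll1 to above 100 TPM for Jag1.

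Jag1 was the most abundant member and Dll1 the least. Averaged over the 6 libraries, the order was Jag1 (123 TPM), Hey1 (69.0 TPM), Notch1 (58.7 TPM), Jag2 (41.8 TPM), Notch3 (27.8 TPM), Hey2 (26.4 TPM), Hes5 (24.5 TPM), Notch2 (20.2 TPM), Hes1 (19.7 TPM) and Dll1 (3.04 TPM). The upper 4 places were held in the same order in 6 of 6 libraries, although Hey1 and Notch1 nearly met in wild type replicate 3, at a ratio of 1.001. Jag2 was above Notch3, and Hes1 above Dll1, in 6 of 6 libraries. Between these, the neighbours changed places from library to library: Notch3 was above Hey2 in 2 of 6, Hey2 above Hes5 in 4 of 6, Hes5 above Notch2 in 3 of 6, and Notch2 above Hes1 in 1 of 6, so these neighbours did not differ beyond the spread of the libraries. Some members farther apart kept their order: Notch3 was above Notch2 and above Hes1, and Hey2 above Hes1, in 6 of 6 libraries. Others changed places too. The ratio of Notch3 to Hes5 ran from 0.834 to 1.472 over the libraries, and that of Hes1 to Hes5 from 0.533 to 1.177. That of Notch2 to Hey2 ran from 0.606 to 1.005.

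The receptors bind the ligands and carry the signal into the cell. Notch1, the receptor most tied to hair cell patterning, was at 66.82, 51.16 and 54.75 TPM in knockout libraries and at 55.12, 53.93 and 70.59 TPM in wild-type libraries. The highest value fell in wild type replicate 3 and the next in knockout replicate 1, so the groups overlapped. Knockout replicate 2 lay below all wild-type libraries. The log2 fold change was -0.05 (SE 0.14, limma adjusted p = 0.993), with a 95% confidence interval of 0.775 to 1.20 as a fold of TPM + 1. Notch2 was at 22.76, 18.30 and 19.35 TPM in knockout libraries and at 17.55, 19.39 and 24.04 TPM in wild-type libraries (log2 fold change -0.0071, SE 0.14). Notch3 was at 31.62, 24.99 and 24.79 TPM in knockout libraries and at 27.88, 26.33 and 30.99 TPM in wild-type libraries (-0.07, SE 0.12), and leaving out knockout replicate 1 gave -0.18, leaving out wild type replicate 3 -0.0068. All 3 receptors were highest in the same pair of libraries, knockout replicate 1 and wild type replicate 3, which belong to different genotypes.

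The mix of receptors was steady. Of the summed TPM of Notch1 to Notch4, Notch1 made up 52.4% ± 0.47 in knockout and 52.8% ± 1.36 in wild-type libraries, Notch3 24.7% ± 0.72 and 25.2% ± 1.51, and Notch2 18.4% ± 0.44 and 17.9% ± 0.93. Notch4, an endothelial receptor, was the remainder. The sum itself was 109.8 ± 15.4 TPM in knockout libraries and 113.3 ± 15.0 TPM in wild-type libraries, and ranged from 98.5 to 131 TPM over the 6 libraries.

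The receptors have long transcripts, and the level of long transcripts as a class differed between libraries. The longest annotated transcripts are 9488 bases for Notch1, 10500 for Notch2 and 8016 for Notch3. Over the 1347 tested protein-coding genes with a transcript over 7000 bases, the median log2 level relative to the mean of the 6 libraries was 0.089 in knockout replicate 1, -0.065 in knockout replicate 2 and -0.104 in knockout replicate 3, and 0.08, -0.011 and 0.007 in wild type replicates 1 to 3. After per-library trends on length and GC content were removed, Notch1 stood at 0.078 in knockout replicate 1 (0.193 before) and at 0.226 in wild type replicate 3 (0.272 before). Wild type replicate 3 was thus still the highest for Notch1 after that step. It was also the library with the lowest nerve and dividing cell markers and the highest hair cell and supporting cell sums. The part of these in the receptor levels was not tested.

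**Figure D2:**
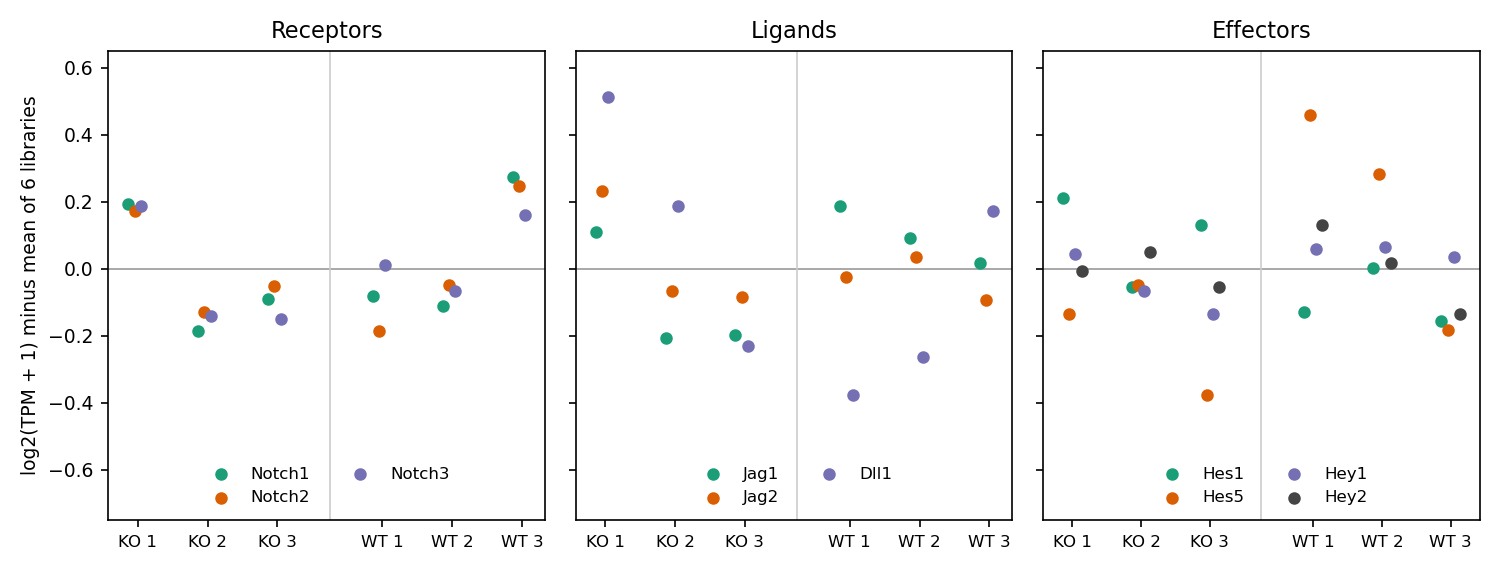
log2(TPM + 1) of each member minus its mean over the 6 libraries, by library (KO, Plscr5 knockout replicates 1 to 3, left; WT, wild type replicates 1 to 3, right), in panels for receptors, ligands and effectors. The 3 receptors are high in KO 1 and WT 3 and lie close together in most libraries, but farther apart in WT 1. Hes5 is high in WT 1 and WT 2 and lowest in KO 3.

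Of the ligands, Jag1 is the Jagged ligand of supporting cells and the prosensory region. It was at 132.32, 106.08 and 106.87 TPM in knockout libraries and at 139.74, 130.95 and 124.29 TPM in wild-type libraries. Knockout replicates 2 and 3 lay below all wild-type libraries, and knockout replicate 1 lay among them. Jag1 averaged 115 ± 15 TPM in knockout libraries and 132 ± 8 TPM in wild-type libraries (SD). Its log2 fold change was -0.20 (SE 0.10, limma adjusted p = 0.989), and it ranked 1194 among the tested features by p. The confidence interval ran from 0.743 to 1.02 as a fold, and the estimate was between -0.30 and -0.14 whichever library was left out.

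Jag2 and Dll1 are the ligands of nascent hair cells. Jag2 was at 49.14, 39.75 and 39.31 TPM in knockout libraries and at 40.97, 42.75 and 39.03 TPM in wild-type libraries (log2 fold change 0.05, SE 0.10, limma adjusted p = 0.99). Its value without knockout replicate 1, the highest library, was -0.05. Dll1 was at 4.62, 3.49 and 2.36 TPM in knockout libraries and at 2.04, 2.29 and 3.44 TPM in wild-type libraries. Knockout replicates 1 and 2 were above all wild-type libraries, by little in the case of replicate 2, and knockout replicate 3 was not. The log2 fold change of Dll1 was 0.31 (SE 0.24, limma adjusted p = 0.989), with an interval of 0.845 to 1.82 as a fold, the widest among the members. It ranged from 0.13 without knockout replicate 1 to 0.50 without knockout replicate 3. The summed level of 7 hair cell markers was 237 to 245 TPM in knockout and 241 to 273 TPM in wild-type libraries, so the ranges overlapped.

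The ratio of the Jagged ligands within each library did not overlap between genotypes, although the level of either ligand did. The ratio of Jag1 to Jag2 was 2.69, 2.67 and 2.72 in knockout libraries and 3.41, 3.06 and 3.18 in wild-type libraries. The difference in the log2 ratio was -0.26, lower in 3 of 3 knockout libraries, and a two-sided exact permutation test gave p = 0.1, the smallest that 3 libraries against 3 allow. This ratio was picked after the values were seen. Among all 45 pairs of members, 6 pairs (13.3%) had ratios that did not overlap between genotypes, close to the 9.33% of single features, and pairs that share a gene are not independent. Adjusted over the 45 pairs, the exact permutation p of each of the 6 was 0.562. The other 5 pairs were Jag1 to Hes1, Jag2 to Hes1, Jag2 to Hey1, Hes1 to Hey1 and Hes5 to Hey2. As a share of the summed TPM of Jag1, Jag2, Dll1, Dll3 and Dll4, Jag1 made up 69.0% ± 0.58 in knockout and 72.8% ± 1.21 in wild-type libraries, and Jag2 25.6% ± 0.09 and 22.7% ± 0.88.

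**Figure D3:**
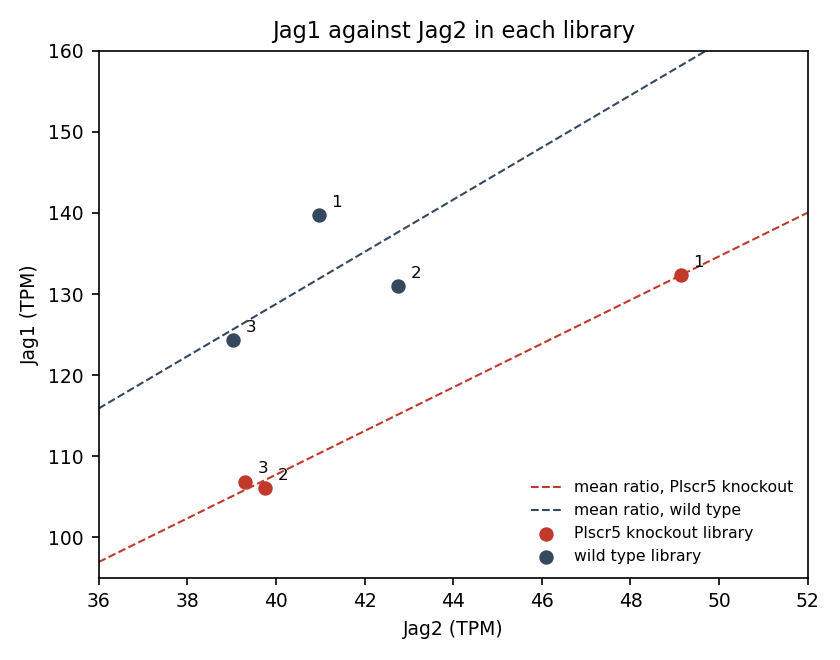
Jag1 against Jag2 in TPM, a point per library numbered by replicate, in Plscr5 knockout (red) and wild type (blue), with dashed lines at each genotype's mean ratio of 2.69 and 3.22. The axes do not start at 0, and the knockout points lie along a lower line than the wild-type points.

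The effectors are basic helix-loop-helix repressors that carry out the response. Hes5, a direct target of the pathway that marks supporting cells next to hair cells, had the largest negative fold change of the 10. It was at 21.81, 23.20 and 18.29 TPM in knockout libraries and at 33.41, 29.43 and 21.05 TPM in wild-type libraries. Wild type replicates 1 and 2 were above all knockout libraries, and wild type replicate 3 lay within the knockout range. Hes5 averaged 21.1 ± 2.5 TPM in knockout libraries and 28.0 ± 6.3 TPM in wild-type libraries (SD). Its log2 fold change was -0.37 (SE 0.17, limma adjusted p = 0.989), which ranked 883 among the tested features by p. The interval ran from 0.587 to 1.02 as a fold. Without wild type replicate 3 the estimate was -0.56, and without wild type replicate 1 it was -0.24. The limma adjusted p stayed above the threshold in all 15 alternatives, at 0.663 or higher.

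Hes1, the broadly expressed relative of Hes5, had a positive fold change. It was at 22.85, 18.81 and 21.53 TPM in knockout libraries and at 17.82, 19.61 and 17.48 TPM in wild-type libraries. Knockout replicates 1 and 3 lay above all wild-type libraries and knockout replicate 2 lay within their range. Its log2 fold change was 0.19 (SE 0.11, limma adjusted p = 0.989), with an interval of 0.963 to 1.35 as a fold, and it was positive in all 15 alternatives. The ratio of Hes1 to Hes5 was 1.05, 0.811 and 1.18 in knockout libraries and 0.533, 0.666 and 0.83 in wild-type libraries, where knockout replicate 2 fell just below wild type replicate 3 (two-sided exact permutation p = 0.2).

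Hey1 was the most abundant effector and varied least between libraries. It was at 71.06, 65.74 and 62.70 TPM in knockout libraries and at 71.85, 72.14 and 70.69 TPM in wild-type libraries, with knockout replicate 1 inside the narrow wild-type range and the other knockouts below it. The coefficient of variation over the 6 libraries was 5.63%, against 32.5% for Dll1 and 23.3% for Hes5, the most variable members. The log2 fold change of Hey1 was -0.11 (SE 0.07, limma adjusted p = 0.989), and it ranged from -0.15 to -0.07 when a library was left out. Hey2, known for keeping pillar cells from becoming hair cells, was at 26.23, 27.36 and 25.34 TPM in knockout libraries and at 28.98, 26.71 and 23.91 TPM in wild-type libraries (-0.0083, SE 0.10, interval 0.851 to 1.16 as a fold). Hes5 and Hey2, whose promoter windows hold the RBPJ cores printed above, had fold changes of -0.37 and close to 0. Neither passed the threshold, and a relation of these letters to the fold changes was not tested.

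Supporting cells are the main site of Hes5 and Hey2 in the sensory epithelium, and their markers are given beside the effectors. The summed level of Sox2, Prox1, Fgfr3, Cdkn1b, Slc1a3 and Gjb2 was 632 to 670 TPM in knockout and 673 to 760 TPM in wild-type libraries, so the sums did not overlap, by a narrow margin. Gjb2 was the largest part of the sum, at 228 to 239 TPM in knockout and 243 to 295 TPM in wild-type libraries. It was also the only marker of the 6 without overlap, so the gap in the sums leans on this gene. All 6 had a negative fold change (median -0.15), with 0 past the threshold. Of the single markers, 1 of 6 supporting cell and 2 of 7 hair cell markers did not overlap between genotypes, beside 9.33% of all tested features. Lists of this size, the mural cell list below included, are too small to differ from that share. The sums of markers of other cells with Notch activity overlapped: 9 endothelial markers summed to 273 to 305 TPM in knockout and 277 to 296 TPM in wild-type libraries, and 7 mural cell markers to 120 to 132 TPM and 114 to 136 TPM. At 1 of these 7, Kcnj8, the genotypes did not overlap (log2 fold change 0.16, limma adjusted p = 0.989). Schwann cell markers summed to 1316 to 2094 TPM in knockout and 337 to 1282 TPM in wild-type libraries, which did not overlap. The part of any of these in the member levels was not tested.

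**Figure D4:**
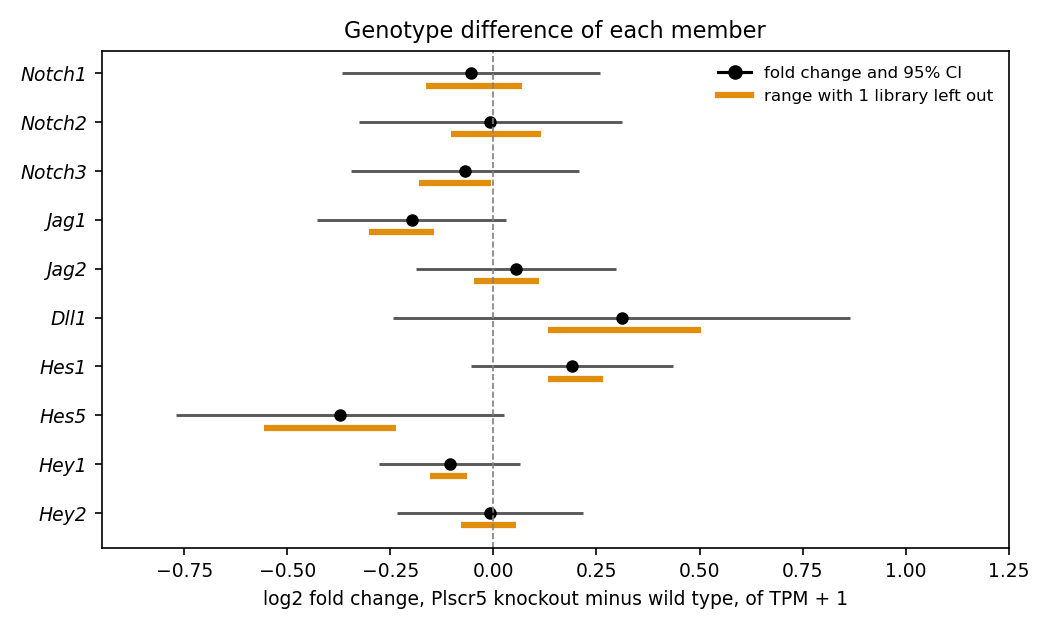
log2 fold change of TPM + 1, Plscr5 knockout minus wild type, for each member (point) with its 95% confidence interval (black line) and the range when 1 library is left out (orange line). All 10 intervals include 0, and Hes5, Jag1 and Hes1 come closest to excluding it.

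The rest of the pathway was read from 47 further genes in 6 functional lists, of which 43 passed the filter. Of these, 0 passed the threshold, 16 had positive and 27 negative fold changes with a median of -0.02, and 1 had an unadjusted limma p under 0.05. Over all 17097 tested features, 7969 fold changes were positive and 9128 negative, and 4% had an unadjusted limma p under 0.05. The split of the pathway genes was 21 positive and 22 negative with trimmed-mean scaling. It was 15 and 28 with quantile normalization and 16 and 27 with length and GC trends removed. When a library was left out it ran from 13 and 30 (without knockout replicate 1) to 21 and 22 (without knockout replicate 3 or wild type replicate 3). At 4 of the 43 the genotypes did not overlap, which is close to the 9.33% of all tested features. Mfng, Maml2 and Psenen were among them.

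Among genes that modify receptors and ligands, 7 of 9 fold changes were negative. Mfng, a glycosyltransferase that alters which ligands Notch prefers, was at 17.73, 17.43 and 17.45 TPM in knockout libraries and at 20.67, 19.61 and 22.53 TPM in wild-type libraries. The knockout libraries were all below the wild-type ones (log2 fold change -0.24, SE 0.09, limma adjusted p = 0.989), and Mfng was the 1 pathway gene with an unadjusted p under the threshold. Pofut1, which adds O-fucose to Notch, had a fold change of -0.11, and Mib1, the ubiquitin ligase that readies ligands, -0.12. Lfng, another fringe enzyme and a supporting cell gene, averaged 77.9 ± 4.1 TPM in knockout libraries and 82.4 ± 8.5 TPM in wild-type libraries.

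The receptor proteases went both ways, with 2 of 10 positive. Psenen, a subunit of gamma-secretase, was at 125.03, 128.24 and 127.52 TPM in knockout libraries and at 115.31, 112.41 and 118.17 TPM in wild-type libraries, with no overlap (log2 fold change 0.14, SE 0.06, limma adjusted p = 0.989). Adam10, the metalloprotease that makes the first cut after ligand binding, had a fold change of -0.09.

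In the nuclear complex 6 of 8 genes were negative. Rbpj, the DNA-binding partner, averaged 41.5 ± 3.6 TPM in knockout libraries and 45.0 ± 3.5 TPM in wild-type libraries (log2 fold change -0.11, SE 0.10), the coactivator Maml2 had -0.12 and the corepressor Spen -0.16. Among negative regulators 5 of 9 were positive, and those with the smallest p were Nrarp, a feedback inhibitor and Notch target (-0.11), the ubiquitin ligase subunit Fbxw7 (0.10) and Dtx2 (-0.08). Of the other Hes and Hey genes, Heyl had -0.15 and Hes6 0.08, while Hes2, Hes3 and Hes7 were below the filter. Among the other ligands and the fourth receptor 4 of 5 tested genes were positive, led by Dner (0.58, SE 0.32), a neuronal Notch ligand. Dner was at 25.75, 20.04 and 17.27 TPM in knockout libraries and at 16.07, 19.54 and 7.84 TPM in wild-type libraries, lowest in wild type replicate 3, the library with the lowest neuronal markers. The fold change was 0.40 for Dlk1 and -0.09 for the endothelial ligand Dll4. None of the genes named in these lists passed the threshold.

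**Figure D5:**
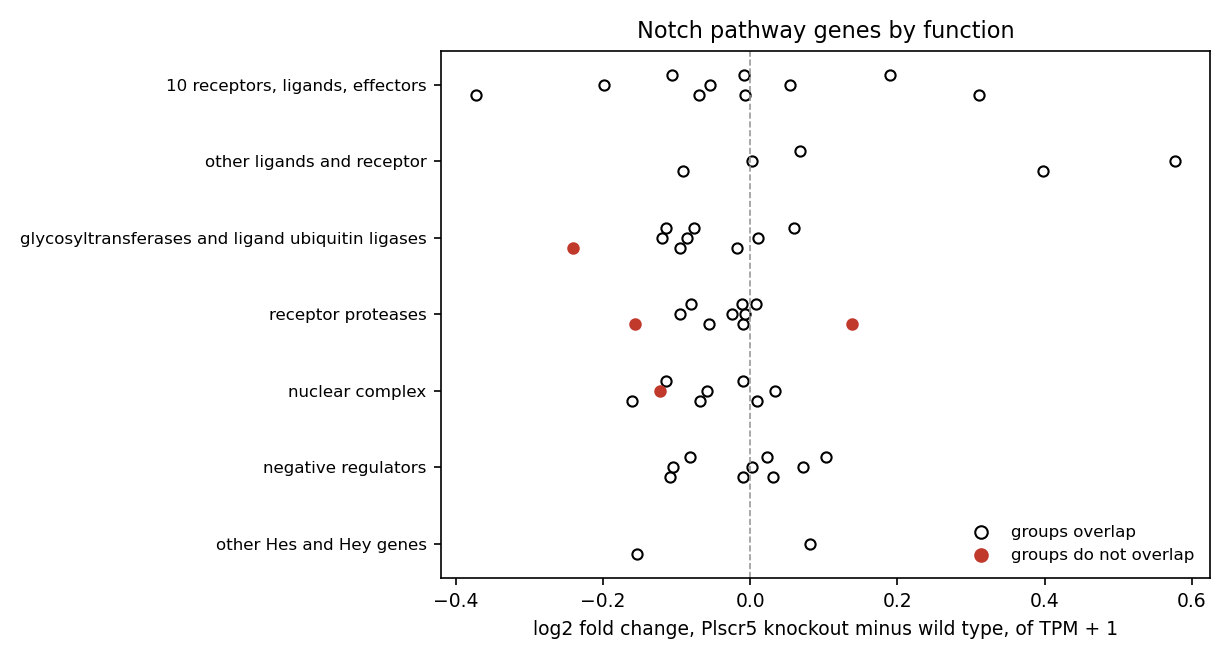
log2 fold change of TPM + 1, Plscr5 knockout minus wild type, of the 10 members (upper row) and of the 43 other tested pathway genes by function, a point per gene. Filled red points mark the 4 genes at which the genotypes do not overlap, and most points lie within 0.2 of 0.

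Profiles nearest to the most variable members were sought among 14236 other tested protein-coding genes, by the root mean square difference of centred log2(TPM + 1) over the 6 libraries, as a description only. Nearest to Dll1 were Slc7a7, an amino acid transporter gene (0.06), Ctsw (0.10) and Sspo (0.12). Nearest to Hes5 were Gm10401 (0.05), Ovgp1 (0.07) and Umad1 (0.08). With 6 libraries and this many genes, close profiles are easy to find. Annotated features on the opposite strand overlap Notch1, Notch3, Dll1 and Hes5, and whether the counting used strand is not given in the sources used here. Opposite Hes5, Gm20421 was at 2.46, 4.33 and 2.28 TPM in knockout libraries and at 4.19, 5.86 and 2.52 TPM in wild-type libraries. Opposite Notch1, Gm13568 was at 16.08, 12.14 and 12.53 TPM in knockout libraries and at 10.68, 12.57 and 21.13 TPM in wild-type libraries, highest in the same library as Notch1. Also opposite Notch1, 0610009E02Rik was at 18.17, 13.36 and 18.42 TPM in knockout libraries and at 14.34, 17.01 and 14.96 TPM in wild-type libraries, highest in knockout replicate 3. Member values are uncertain to the extent that reads were shared with such features.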

How the data were processed

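The 6 libraries of cochlear total RNA were grouped by the labelled genotype. The values deposited by the authors are in TPM, a unit read from the values, since every library has the same total. DESeq2 and the build mm8 are listed in the submitters' processing notes, in no stated role. The aligner, the quantifier and the annotation were not given in the sources used here. Depth is unknown, and no counting interval can be given. Symbols, transcript lengths and overlaps came from GENCODE M21 (GRCm38), and promoters from RefSeq (GRCm38.p6), neither used with coordinates of the files.

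Features that reached 1 TPM in 3 or more libraries were tested as log2(TPM + 1), a pseudocount of 1, with limma 3.58.1 in R 4.3.3 (intensity trend, robust moderation). The fit was tested on simulated data. Ratios were tested by two-sided exact permutation (scipy 1.17.1). Pathway genes were named by function list: those past the threshold, then up to 3 per list with the smallest p, and for the 2 members of largest SD the 3 nearest genes. A gene that this rule named is not reported here. Lfng, Kcnj8, Gm20421, Gm13568, 0610009E02Rik, the ratios and the class of long transcripts were chosen after their values were seen. Members and lists were chosen with earlier results of these data known. Alternatives were other pseudocounts, filters, scalings and moderation, a replicate block, each library left out and, added after seeing the data, removal of length and GC trends.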

Additional observations from a re-analysis of the deposited data

How the results depend on the processing

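The count of members past the threshold was 0 in all 15 alternatives, and so was that of other pathway genes. The count of all features past it, 2 as reported, was 1 with trimmed-mean scaling and with haemoglobin and mitochondrial genes removed, and 0 with no filter, without trend and robust moderation, with the replicate block and with length and GC trends removed (an alternative chosen after seeing the data). It ranged from 0 to 3 when a library was left out, being 0 without knockout replicate 1 (1008 features at an unadjusted limma p under 0.05), knockout replicate 3 (515) or wild type replicate 1 (542). The cause was not tested. Of 149 member fold changes under alternatives, 135 kept their sign and 14 reversed. Notch2 was 0.0058 with trimmed-mean scaling, 0.0080 with quantile normalization and 0.033 with length and GC trends removed, and Hey2 0.0050, 0.0028 and 0.00061. With single libraries left out, Notch3 ranged from -0.18 to -0.0068, Notch1 from -0.16 to 0.068, Notch2 from -0.10 to 0.11, Jag2 from -0.048 to 0.11 and Hey2 from -0.078 to 0.055. The Jag1 to Jag2 log2 ratio was between -0.29 and -0.21 in its 11 recomputations. These include other pseudocounts and the removal of haemoglobin and mitochondrial genes, which can hardly change a ratio within a library. Deviations of same-numbered libraries of the genotypes correlated at 0.188, -0.055 and 0.242 across features. Those of differently numbered libraries correlated at -0.269 to 0.126. These values do not settle whether libraries share a batch by number. The labels state no pairing, and the numbers were not taken as one in the main fit. With the replicate block 2 of 10 members, Hes5 and Jag1, had an unadjusted limma p under 0.05 (0.011 and 0.029) and 0 passed. Under the same block 7.31% of all tested features had such a p. Jag1 also had one without knockout replicate 1 (0.0061, with 1008 of 16807 features) and with length and GC trends removed (0.049, with 824 of 16744). Hes5 had one without wild type replicate 3 (0.0030, with 779 of 16821). The unknown depth limits how far low genes such as Dll1 can be read.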
